A study of Rattus norvegicus with 6 samples.

Results

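The potassium channel genes of the rat lung were taken as all genes of the deposited table whose symbol starts with Kcn. This gave 92 genes of 23802, each with 1 identifier in the table. They were compared between lungs of male Sprague-Dawley rats given monocrotaline (MCT), 3 samples, and lungs of saline-treated control rats, 3 samples. MCT is a plant alkaloid that injures the lung vessels and is used to produce pulmonary arterial hypertension, and 1 dose of 60 mg/kg was given 4 weeks before the lungs were taken. All rats were wild type per the labels and weighed 200 to 250 g. The labels give the MCT injection as intraperitoneal in one place and subcutaneous in another, and saline as subcutaneous, so the route may have differed between the groups. RNA came from whole lung, and the labels do not say whether a sample is 1 animal. Each sample is called a lung below for short. The p-values therefore refer to sample-to-sample spread, part of which may be technical.

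Potassium channels let potassium leave the cell, which holds the membrane potential negative. In smooth muscle of the pulmonary artery this keeps voltage-gated calcium channels closed, and less potassium current is known to favour contraction and growth of the vessel wall. The pore-forming families are the voltage-gated channels, the calcium- or sodium-activated channels, the inward rectifiers and the K2P channels, which carry leak current and have a pair of pore domains in each subunit. Silent modifier subunits carry no current of their own and join voltage-gated subunits, and auxiliary subunits set gating and traffic.

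Of the 92 genes, 53 had enough reads for the test and 39 did not. Between MCT and control lungs 4 rose (Kcnk13, Kcnmb1, Kcng2 and Kcnh1), 2 fell (Kcnk2 and Kcnmb2) and 47 did not pass (adjusted p under 0.05 by edgeR's quasi-likelihood test, with the Benjamini-Hochberg adjustment made over all 15250 tested genes). The 6 called genes are 11.3% of the 53 tested, and over all tested genes 13.1% were called, so the share of the family called lay near that of all genes. By direction, 8.01% of all tested genes were higher and 5.11% lower in MCT lungs. Values are given below as the log2 ratio of MCT to control. The median log2 ratio was -0.07 over the 53 genes and -0.01 over all tested genes. The 6 libraries did not overlap between groups in 18 of the 53 genes, or 34.0%, against 35.4% of all tested genes. Of these, 7 genes (13.2%) lay higher in MCT lungs and 11 (20.8%) lower, against 18.4% and 17.0% of all tested genes.

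**Figure D1:**
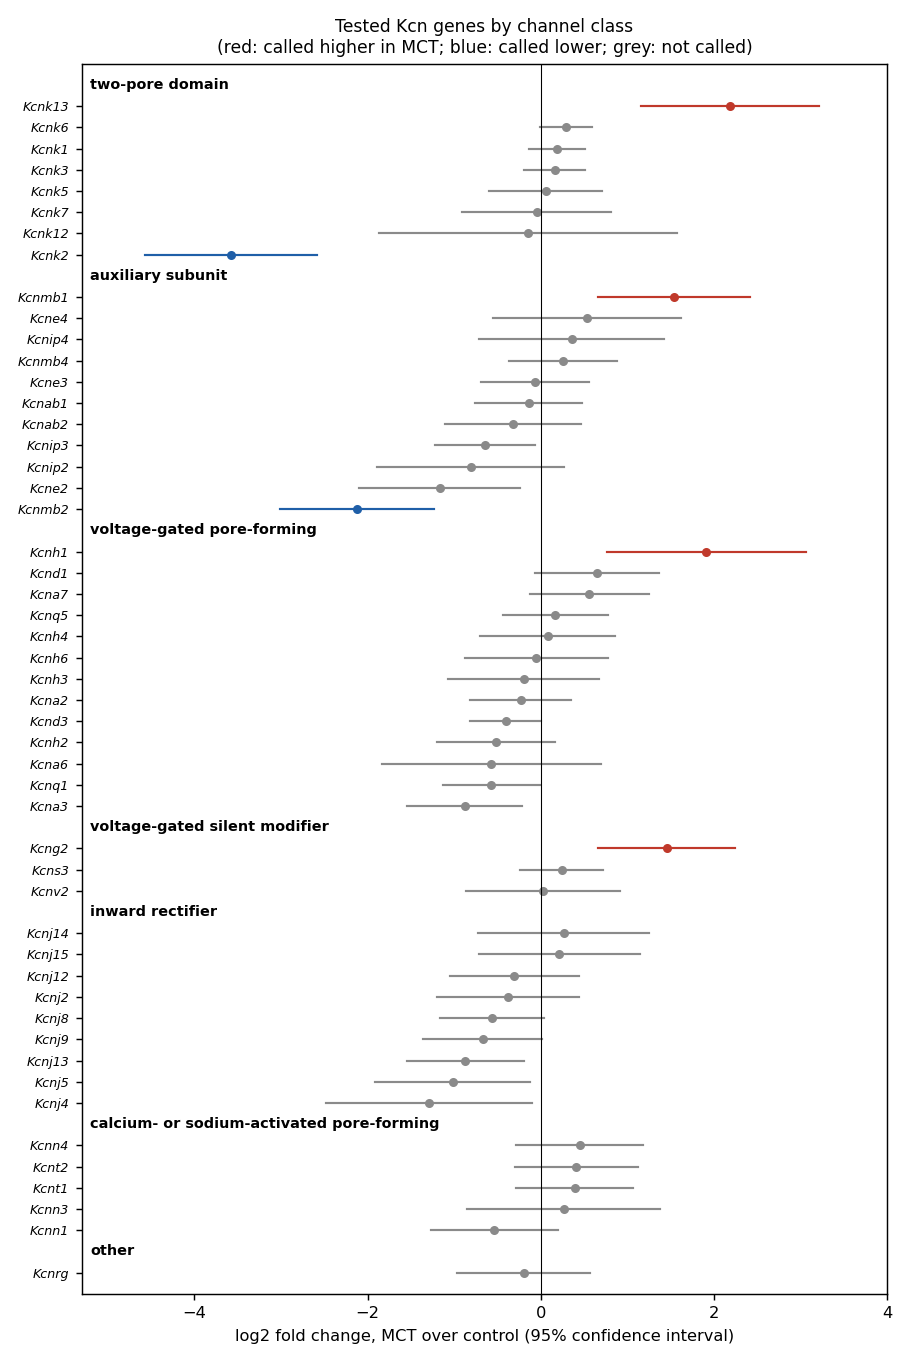
Log2 ratio of 50 of the 53 tested potassium channel genes, MCT over control (horizontal axis, log2 scale), by channel class (rows). Points are edgeR estimates from 3 MCT and 3 control lungs and lines are 95% confidence intervals; 4 genes were called higher (red), 2 lower (blue) and the 44 others shown were not called (grey).

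The libraries held between 13525912 and 17916134 counts each. Markers of the tissue were present, with 10 of 10 alveolar type 2 markers tested and their summed level at 14960 to 24610 CPM (counts scaled to a common library size) in MCT lungs and 26120 to 28100 CPM in control lungs. Several lists of cell type markers also differed between the groups. Among 10 tested genes each, 5 general endothelial, 3 capillary and 3 alveolar type 1 markers fell and none rose, while 8 mast cell markers rose and 2 fell. Of the alveolar type 2 markers 3 fell and 1 rose. No member of the pericyte (9 tested), airway (9 tested), cardiac muscle (5 tested) or neuronal (3 tested) lists was called. In whole lung, fewer cells of a type and less RNA per cell cannot be told apart.

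The K2P class held the gene with the largest log2 ratio in size among the 53 tested. Kcnk2, whose protein TREK-1 is a leak channel opened by stretch and lipids, fell 11.9-fold. It stood at 0.339, 1.42 and 1.68 CPM in MCT replicates 1 to 3 and at 11.9, 14.1 and 15.4 CPM in control replicates 1 to 3. All MCT lungs lay far below all control lungs, and MCT replicate 1, with 5 counts, was the lowest. The log2 ratio was -3.58 (SE 0.43, 95% confidence interval -4.56 to -2.59, adjusted p = 0.00249). Kcnk2 was the only gene of the family that stayed called under each of the 16 alternatives run, with adjusted p from 3.71e-17 to 0.0174. In the RefSeq annotation of GRCr8, a newer build than the table's, Kcnk2 overlaps LOC120096345, which was not analysed here. Mesothelium markers moved the same way: 5 of 7 tested fell, by 4.32-fold to 19.4-fold, and 0 rose. The list summed to 325 to 359 CPM in MCT lungs and 502 to 562 CPM in control lungs, most of it Krt19, a keratin that other epithelia also express and that was not called. Without Krt19 the sum was 22.9 to 34.9 CPM in MCT lungs and 157 to 180 CPM in control lungs. None of the mesothelium markers was at 0 in every library. The fall was not particular to this list. Among capillary, general endothelial and B cell markers 3, 5 and 5 fell and 0 rose, with Gpihbp1 down 7.59-fold and Bank1 9.82-fold. The part of any of these cell types in the fall of Kcnk2 was not tested.

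Kcnk13, the gene of the background channel THIK-1 known from mouse microglia, moved the other way. It stood at 8.88, 3.26 and 5.88 CPM in MCT replicates 1 to 3 and at 1.26, 1.86 and 0.863 CPM in control replicates 1 to 3. Every MCT lung lay above every control lung, and MCT replicate 1 was the highest. Kcnk13 rose 4.55-fold (log2 ratio 2.19, SE 0.45, adjusted p = 0.0173). The call ended without control replicate 1 (adjusted p = 0.0507) or control replicate 3 (adjusted p = 0.0721). Macrophage markers rose beside it, 8 of 9 tested, with a summed level of 1704 to 3237 CPM in MCT lungs and 634 to 737 CPM in control lungs, and MCT replicate 1 was the highest there too. Csf1r, a receptor of macrophages, was the macrophage marker that was not called (log2 ratio 0.25, adjusted p = 0.382). The rise was not particular to this list. Mast cell markers (8 rose, 2 fell) summed to 797 to 2220 CPM in MCT lungs and 410 to 508 CPM in control lungs. Smooth muscle markers (5 rose, 0 fell) summed to 1271 to 1901 and 936 to 1094 CPM, and cell division markers (10 rose) to 290 to 343 and 77.3 to 90.7 CPM. In each of these lists MCT replicate 1 was the highest. The part of macrophages or of any of these other cells in the rise of Kcnk13 was not tested.

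None of the other K2P transcripts passed the test. Kcnk3 encodes TASK-1, a leak channel sensitive to acid and oxygen whose gene carries variants in human heritable pulmonary arterial hypertension. Its level was 19.3, 25.2 and 26.3 CPM in MCT replicates 1 to 3 and 20.3, 21.8 and 21.4 CPM in control replicates 1 to 3. MCT replicate 1 lay below all controls and the other MCT lungs lay above them, so the groups overlapped. The log2 ratio was 0.16 (95% confidence interval -0.19 to 0.51, adjusted p = 0.531), which spans a fold of 0.876 to 1.43. Acta2, the smooth muscle actin gene, rose 1.77-fold (adjusted p = 0.0453), and the ratio of Kcnk3 to Acta2 in FPKM (a level per transcript length and library size) was 0.0302, 0.0622 and 0.0356 in MCT replicates 1 to 3 and 0.066, 0.0635 and 0.0536 in control replicates 1 to 3. This ratio overlapped between groups through MCT replicate 2. The rise of Acta2 by itself lowers the ratio, and the other smooth muscle markers were not set against Kcnk3.

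Kcnk1, the TWIK-1 gene and the most abundant K2P transcript per length, had a log2 ratio of 0.19 (95% confidence interval -0.14 to 0.52, adjusted p = 0.418). Kcnk6 encodes TWIK-2, whose loss raises pulmonary pressure in mice. It stood at 35.7, 31.8 and 31.0 CPM in MCT replicates 1 to 3 and at 28.8, 24.3 and 27.6 CPM in control replicates 1 to 3. The groups did not overlap, but the log2 ratio of 0.29 did not pass (adjusted p = 0.18). A near copy of Kcnk6 in the table had no reads in any library. In GRCr8 Kcnk6 also overlaps LOC103689966, which was not analysed here. Among the 8 K2P genes tested there was 1 that rose, 1 that fell and 6 that did not pass, and the median log2 ratio was 0.11.

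**Figure D2:**
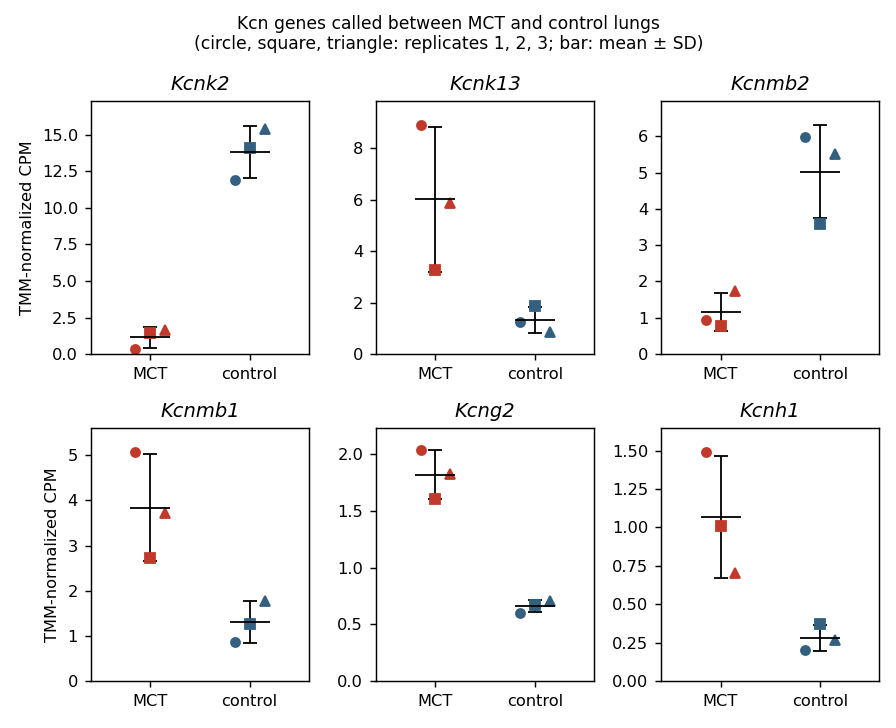
Level in TMM-normalized CPM (vertical axis, from 0) of the 6 called potassium channel genes in each lung, MCT left and control right. Symbols are replicates 1 to 3 and bars mean ± SD; in each panel the 3 MCT lungs lie on one side of the 3 control lungs, with Kcnk2 at 0.339 to 1.68 CPM in MCT and 11.9 to 15.4 CPM in control lungs.

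Among auxiliary subunits, a pair that serves the same pore moved in opposite directions. Kcnmb1 encodes the beta subunit that raises the calcium sensitivity of the large-conductance calcium-activated channel in smooth muscle. Kcnmb1 stood at 5.09, 2.73 and 3.71 CPM in MCT replicates 1 to 3 and at 0.865, 1.27 and 1.78 CPM in control replicates 1 to 3. It rose 2.91-fold with no overlap between the groups (log2 ratio 1.54, SE 0.39, adjusted p = 0.0339), on 46 to 75 counts per MCT lung and 13 to 33 per control lung. The call held without MCT replicate 2 and ended without any other library (adjusted p = 0.0612 to 0.11). Kcnmb1 overlaps Kcnip1 in GRCr8. The sources used here do not say whether reads were counted by strand, so reads of these genes may be mixed, and Kcnip1 itself had 2 to 10 counts in each library. Smooth muscle markers rose beside Kcnmb1, 5 of 10 tested, with a summed level of 1271 to 1901 CPM in MCT lungs and 936 to 1094 CPM in control lungs. Divided by each of the 10 markers in FPKM, a comparison chosen after the values were seen, Kcnmb1 was higher in every MCT lung than in every control lung for 7 markers. Of these 7 markers 3 were called higher and 4 were not called. The groups overlapped for the other 3, among them Cnn1 and Des, which belong to the 5 markers that rose. Kcnmb1 was taken up because it rose without overlap, and its rise by itself raises these ratios. They therefore cannot show whether smooth muscle had a part. The part of smooth muscle in the rise of Kcnmb1 was not tested.

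Kcnmb2 encodes the beta subunit that makes the same channel inactivate. It stood at 0.949, 0.771 and 1.75 CPM in MCT replicates 1 to 3 and at 5.99, 3.58 and 5.5 CPM in control replicates 1 to 3. It fell 4.36-fold, with each MCT lung below each control lung (log2 ratio -2.12, SE 0.39, adjusted p = 0.0117). The call ended without control replicate 3 (adjusted p = 0.0516) and on the log2(FPKM + 0.1) scale (adjusted p = 0.0501). In FPKM the ratio of Kcnmb1 to Kcnmb2 was 11.6, 6.28 and 1.99 in MCT replicates 1 to 3 and 0.223, 0.654 and 0.442 in control replicates 1 to 3. Kcnmb1 was thus the more abundant of the pair per length in every MCT lung and the less abundant in every control lung. The pore gene Kcnma1 had 6 to 10 counts per MCT lung and 3 to 11 per control lung in this table and was not tested.

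Kcne2, a small subunit that joins the pore proteins of Kcnq1 and Kcnh2, had the highest mean FPKM of the family over the 6 lungs, 32.3, against 31.6 for Kcnk1. It led in 2 control lungs, and Kcnk1 led in the other control lung and in all 3 MCT lungs. It stood at 13.0, 40.4 and 49.0 CPM in MCT replicates 1 to 3 and at 57.7, 88.0 and 84.6 CPM in control replicates 1 to 3. All MCT lungs lay below all control lungs, with MCT replicate 1 far under the other MCT lungs, and the log2 ratio of -1.17 did not pass (SE 0.41, 95% confidence interval -2.09 to -0.24, adjusted p = 0.0962). Airway markers summed to 6673 to 12690 CPM in MCT lungs and 8382 to 14320 CPM in control lungs, of which Scgb1a1 alone made up 6064 to 11640 CPM in MCT lungs and 7903 to 13510 CPM in control lungs. Alveolar type 2 markers, of which 3 fell and 1 rose, summed to 14960, 20980 and 24610 CPM in MCT replicates 1 to 3. In control lungs they summed to 26120 to 28100 CPM, so the groups did not overlap and MCT replicate 1 was again the lowest. General endothelial markers did not overlap either, at 1822 to 3239 CPM in MCT lungs and 3727 to 4323 CPM in control lungs. The part of any of these cell types in the values of Kcne2 was not tested. Kcnip3, outside the rule for named genes, had a log2 ratio of -0.64 (adjusted p = 0.13). The test called 2 of the 11 auxiliary genes, 1 in each direction, and the median log2 ratio of the 11 was -0.14.

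The stretches before the starts of Kcnk13, Kcnk2 (both starts), Kcnmb1 and Kcnmb2 are given because the K2P and the auxiliary class each hold 1 gene that rose and 1 that fell. They are the 250 bases upstream of the start in RefSeq's GRCr8 promoter table, 5′ to 3′ on the gene's strand, with each CG dinucleotide in capitals.
Kcnk13, chr6:124971559-124971808, plus strand: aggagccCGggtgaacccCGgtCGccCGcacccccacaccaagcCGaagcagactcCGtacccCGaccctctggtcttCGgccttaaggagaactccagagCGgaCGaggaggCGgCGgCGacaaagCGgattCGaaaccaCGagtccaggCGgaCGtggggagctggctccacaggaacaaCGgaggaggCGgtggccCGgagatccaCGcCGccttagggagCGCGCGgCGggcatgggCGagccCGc
Kcnk2 start 1, chr13:103438643-103438892, minus strand: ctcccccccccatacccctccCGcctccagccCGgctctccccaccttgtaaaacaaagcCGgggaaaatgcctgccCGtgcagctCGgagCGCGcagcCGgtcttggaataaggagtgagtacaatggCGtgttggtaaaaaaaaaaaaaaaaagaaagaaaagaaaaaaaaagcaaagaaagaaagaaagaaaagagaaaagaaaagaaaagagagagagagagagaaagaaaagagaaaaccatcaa
Kcnk2 start 2, chr13:103494687-103494936, minus strand: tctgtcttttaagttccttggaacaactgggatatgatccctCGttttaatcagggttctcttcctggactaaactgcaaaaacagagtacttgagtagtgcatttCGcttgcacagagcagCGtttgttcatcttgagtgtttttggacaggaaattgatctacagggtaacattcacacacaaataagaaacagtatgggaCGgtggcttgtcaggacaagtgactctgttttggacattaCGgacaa
Kcnmb1, chr10:19061849-19062098, plus strand: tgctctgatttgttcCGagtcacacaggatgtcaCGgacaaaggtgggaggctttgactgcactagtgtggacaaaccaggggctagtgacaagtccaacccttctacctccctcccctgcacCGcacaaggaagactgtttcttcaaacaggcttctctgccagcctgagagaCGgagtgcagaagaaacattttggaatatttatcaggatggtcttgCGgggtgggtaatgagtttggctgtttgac
Kcnmb2, chr2:116599049-116599298, plus strand: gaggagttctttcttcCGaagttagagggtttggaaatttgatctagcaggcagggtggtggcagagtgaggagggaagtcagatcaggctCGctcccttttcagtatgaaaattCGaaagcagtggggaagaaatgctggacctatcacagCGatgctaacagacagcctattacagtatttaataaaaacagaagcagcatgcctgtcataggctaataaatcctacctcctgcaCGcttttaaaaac

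The window of Kcnk13 held 29 CG dinucleotides, more than 94.0% of all 33469 windows in the table. The windows of Kcnk2 held 9 and 5, that of Kcnmb1 5 and that of Kcnmb2 5, at or near the median of 5 over all windows. The windows of Kcng2, with 29, and Kcnh1, with 24, were CG-rich like that of Kcnk13. Windows were found for 62 of the 92 genes by symbol, 68 windows in all. Motifs were searched on both strands. The CArG box of smooth muscle genes was in 1.5% of all windows and in 0 of the 68. The motif GGGCGG was in 30.5% of all windows and in 33 of the 68, among them those of Kcng2 and Kcnh1. The motif ACGTG was in 16.6% of all windows and in 7 of the 68, among them that of Kcnk13. The motif TATAAA was in 12.9% of all windows and in 2 of the 68, and the motif TGANTCA was in 6.34% of all windows and in 2 of the 68, with no called gene among either. These matches are descriptions of letters in a window and say nothing about binding.

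In the voltage-gated pore class, 1 of the 16 genes tested rose and 0 fell, and the median log2 ratio was -0.22. The gene that rose was Kcnh1, whose channel is known from neurons and from dividing tumour cells. It stood at 1.49, 1.01 and 0.701 CPM in MCT replicates 1 to 3 and at 0.2, 0.372 and 0.27 CPM in control replicates 1 to 3. The groups did not overlap and the log2 ratio was 1.91 (SE 0.50, adjusted p = 0.0387), but the values rest on 10 to 22 counts per MCT lung and 3 to 5 per control lung. The call ended with DESeq2 (adjusted p = 0.0672), with limma-voom (adjusted p = 0.0514) and without any 1 library (adjusted p = 0.0594 to 0.142), and on the log2(FPKM + 1) scale the value was 0.24 (adjusted p = 0.193). It also ended with no filter on low counts, on the log2(FPKM + 0.1) scale and with the replicate block. Kcnh1 was thus called in only 3 of the 15 alternatives that tested it. Cell division markers rose beside it, 10 of 10 tested, with a summed level of 290 to 343 CPM in MCT lungs and 77.3 to 90.7 CPM in control lungs. Their part in the rise of Kcnh1 was not tested.

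Kcna3, the voltage-gated channel of T cells, stood at 2.37, 2.73 and 3.78 CPM in MCT replicates 1 to 3 and at 4.46, 5.14 and 6.69 CPM in control replicates 1 to 3. Each MCT lung lay below each control lung, and the log2 ratio of -0.88 did not pass (95% confidence interval -1.54 to -0.21, adjusted p = 0.084). Of the T and NK cell markers 2 of 8 tested fell, with a summed level of 83.5 to 125 CPM in MCT lungs and 117 to 177 CPM in control lungs. Of the B cell markers 5 of 9 fell, at 54.0 to 81.2 CPM in MCT lungs and 120.0 to 229 CPM in control lungs. No marker of either list was called higher. Cd4, of the T and NK list, was not called (log2 ratio 0.70, adjusted p = 0.12) but lay higher in every MCT lung than in every control lung. It stood at 41.5, 29.5 and 28.6 CPM in MCT replicates 1 to 3 and at 13.1, 27.6 and 20.7 CPM in control replicates 1 to 3. The part of these cells in the values of Kcna3 was not tested.

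Kcnq1, a pore of epithelia and heart, had a log2 ratio of -0.57 with overlapping groups (95% confidence interval -1.13 to -0.01, adjusted p = 0.159). Outside the rule, Kcnd3, a pore of transient outward current, had -0.41 (adjusted p = 0.17) and Kcnh2, the hERG gene, had -0.52 (adjusted p = 0.286). For Kcnd3 no MCT lung reached the control range. Kcnh2 stood at 9.97, 26.4 and 20.9 CPM in MCT replicates 1 to 3 and at 29.1, 26.4 and 26.6 CPM in control replicates 1 to 3, so that MCT replicate 2 was level with the lowest control lung.

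Kcnq5, a pore of a non-inactivating current in vascular smooth muscle, had a log2 ratio of 0.17 with overlapping groups (adjusted p = 0.718). The sign for Kcnq5 turned without MCT replicate 2 or control replicate 2. A locus of assembled transcripts that carries the name KCNQ5 in capitals is not part of the family here and had 8, 14 and 18 counts in MCT replicates 1 to 3 and 21, 2 and 14 in control replicates 1 to 3. Kcna5, a voltage-gated pore long studied in the pulmonary artery, had 3, 4 and 4 counts in MCT replicates 1 to 3 and 4, 12 and 8 in control replicates 1 to 3. It was below the filter, and the fit without a filter gave a log2 ratio of -1.10 (adjusted p = 0.368), so no difference was detectable at this depth.

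**Figure D3:**
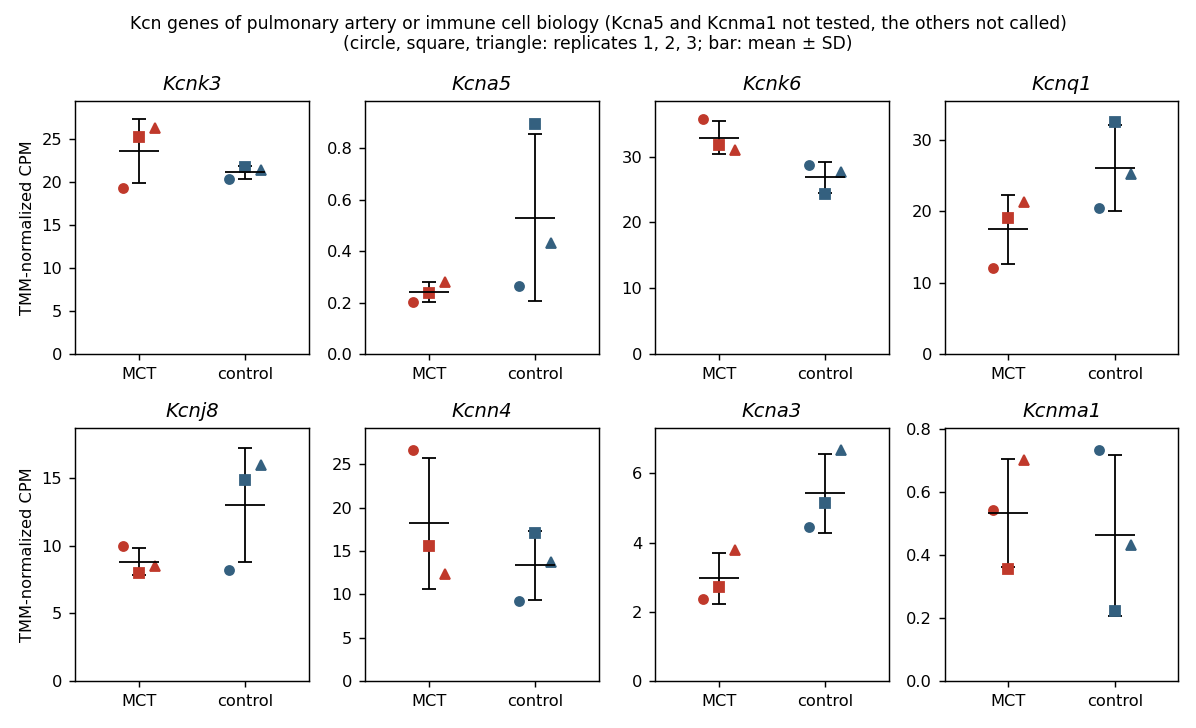
Level in TMM-normalized CPM (vertical axis, from 0) of 8 potassium channel genes known from pulmonary artery, vascular or immune cells, MCT left and control right. Symbols are replicates 1 to 3 and bars mean ± SD; 6 were not called, Kcna5 and Kcnma1 were not tested, and Kcna3 and Kcnk6 are the panels in which the groups do not overlap.

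Of 10 silent modifier genes 3 were tested, and 1 rose. Kcng2, which joins voltage-gated pore subunits, stood at 2.03, 1.6 and 1.82 CPM in MCT replicates 1 to 3 and at 0.599, 0.67 and 0.701 CPM in control replicates 1 to 3. The groups lay well apart, on 26 to 30 counts per MCT lung and 9 to 13 per control lung, and Kcng2 rose 2.74-fold (log2 ratio 1.45, SE 0.35, adjusted p = 0.0284). The call held without MCT replicate 2 and ended without any other library (adjusted p = 0.0749 to 0.103). Kcns3, a modifier known from rat pulmonary artery, was the most abundant silent modifier per length. It stood at 53.0, 32.3 and 35.8 CPM in MCT replicates 1 to 3 and at 28.0, 38.0 and 36.6 CPM in control replicates 1 to 3 (log2 ratio 0.24, adjusted p = 0.485), so that MCT replicate 1 lay apart and the other lungs overlapped.

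None of the 9 tested inward rectifiers was called, and 7 of the 9 log2 ratios were negative (median -0.56). Over the 53 genes 54.7% of the log2 ratios were negative, and over all tested genes 51.3%. Kcnj13, a rectifier of epithelia, stood at 2.17, 1.42 and 2.1 CPM in MCT replicates 1 to 3 and at 3.59, 3.58 and 3.23 CPM in control replicates 1 to 3. The groups did not overlap and the log2 ratio was -0.87 (adjusted p = 0.0892), while on the log2(FPKM + 1) scale it was called at -0.59 (adjusted p = 0.0428). Kcnj13 overlaps Gigyf2 in GRCr8, and reads of the pair may be mixed. No gene with the symbol Gigyf2 was found in the deposited table, so the counts of the pair could not be compared.

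Kcnj8 forms the pore of the vascular channel that opens when ATP is low, together with the receptor subunit of Abcc9. It stood at 9.97, 8.0 and 8.55 CPM in MCT replicates 1 to 3 and at 8.19, 14.9 and 15.96 CPM in control replicates 1 to 3, with control replicate 1 among the MCT lungs. The log2 ratio was -0.56 (adjusted p = 0.192), and without control replicate 1 it was -0.80 and called (adjusted p = 0.0398). Abcc9 had a log2 ratio of -0.07 (adjusted p = 0.735). The FPKM ratio of Kcnj8 to Abcc9 was 0.49, 0.398 and 0.491 in MCT replicates 1 to 3 and 0.364, 0.811 and 0.769 in control replicates 1 to 3.

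Outside the rule, control replicate 1 also set the result for Kcnj5, an acetylcholine-gated rectifier of the heart atria, and for Kcnj14. Kcnj5 stood at 2.65, 2.02 and 2.45 CPM in MCT replicates 1 to 3 and at 2.33, 5.81 and 6.25 CPM in control replicates 1 to 3. Its log2 ratio was -1.02 (adjusted p = 0.122). Leaving out control replicate 1 gave a called value of -1.35 (adjusted p = 0.0288). Cardiac muscle markers, 1 of 10 at 0 in every library, summed to 22.5 to 50.7 CPM in MCT lungs and 23.4 to 49.5 CPM in control lungs, so they overlapped. The members were mixed. Actc1, not called, made up 40.6, 14.1 and 39.7 CPM in MCT replicates 1 to 3 and 11.3, 18.5 and 23.3 CPM in control replicates 1 to 3. Myh6, below the filter, went the other way, at 0.271, 0 and 0.07 CPM in MCT replicates 1 to 3 and 0.732, 0.67 and 6.9 CPM in control replicates 1 to 3. Myl7 (4.53 CPM), Mybpc3 (1.78 CPM) and Csrp3 (1.29 CPM), below the filter, and Myl4 (2.8 CPM), not called, were likewise highest in control replicate 3. Actc1 and Tnnt2 were highest in an MCT lung, and Tnni3 and Ryr2 in control replicate 1. The part of cardiac muscle in the values of Kcnj5 was not tested. Kcnj14 stood at 6.78, 6.34 and 6.79 CPM in MCT replicates 1 to 3 and at 10.1, 3.65 and 2.91 CPM in control replicates 1 to 3, with a log2 ratio of 0.26 (adjusted p = 0.729) that became 1.02 without control replicate 1 (adjusted p = 0.0496) and turned negative without control replicate 3. Kcnj4, likewise outside the rule, had a log2 ratio of -1.29 (adjusted p = 0.139), which became -1.93 and was called when MCT replicate 2 was left out (adjusted p = 0.0429).

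Kcnj2, the classical inward rectifier of vessels and muscle, had a log2 ratio of -0.38 (adjusted p = 0.524). Kcnj15, the most abundant inward rectifier per length in 5 of the 6 lungs, ranged from 11.0 to 21.8 CPM in MCT lungs and from 6.74 to 20.7 CPM in control lungs, and its log2 ratio of 0.21 (adjusted p = 0.774) changed sign without MCT replicate 3 or control replicate 3. Kcnj11, the ATP-sensitive pore of the pancreas, had 0 to 2 counts per MCT lung and 0 to 5 per control lung. Its partner Abcc8, a gene of human heritable pulmonary arterial hypertension, had 2 to 5 counts per MCT lung and 1 to 6 per control lung, so a difference in these genes was not detectable.

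None of the 5 tested calcium- or sodium-activated pores was called. Kcnn4, a calcium-activated channel of lymphocytes, macrophages and epithelia, stood at 26.7, 15.6 and 12.3 CPM in MCT replicates 1 to 3 and at 9.18, 17.1 and 13.8 CPM in control replicates 1 to 3. Only MCT replicate 1 lay above the control range, and the log2 ratio was 0.45 (95% confidence interval -0.28 to 1.18, adjusted p = 0.388). Kcnn3, a calcium-activated channel of endothelium, had a log2 ratio of 0.27 (adjusted p = 0.761) that turned negative without MCT replicate 2 or control replicate 2. Kcnn1, a small-conductance calcium-activated channel, had -0.54 with no overlap between groups (adjusted p = 0.297).

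Kcnrg, an intracellular regulator that is the 1 member in none of the classes, had a log2 ratio of -0.20 (adjusted p = 0.742) and lies outside the rule. Of the 39 genes that were not tested, 8 had no count in any library (Kcna4, Kcna10, Kcnh5, Kcnh7, Kcnj16, Kcnk9, Kcnu1 and Kcnv1). The other 31 reached at most 17 counts in a library, and 0 of them were called in a fit with no filter. Among these 31, chosen after their values were seen, Kcnj3 had 0, 3 and 4 counts in MCT replicates 1 to 3 and 13, 5 and 17 in control replicates 1 to 3, and Kcnab3 had 5, 12 and 5 counts in MCT replicates 1 to 3 and 1, 2 and 3 in control replicates 1 to 3. Neither passed without the filter (adjusted p = 0.138 for Kcnj3 and 0.168 for Kcnab3).

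**Figure D4:**
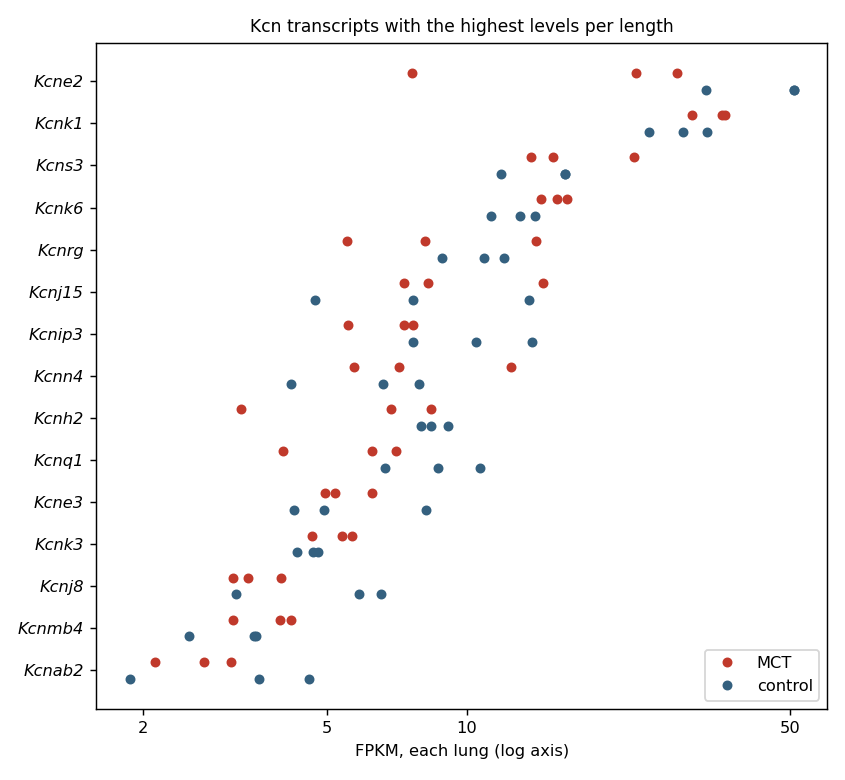
FPKM in each lung (horizontal log axis) of 15 of the 16 potassium channel transcripts with the highest mean over the 6 lungs, MCT above control in each row. Kcne2 and Kcnk1 lead, and the MCT lungs of Kcne2 lie between 7.62 and 28.4 FPKM against 32.9 to 51.0 FPKM in control lungs.

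Per length, the 6 genes with the highest means made up 50.7% of the family's mean summed FPKM, and the highest 16 made up 77.9%. The summed FPKM of all 92 genes was 191, 203 and 231 in MCT replicates 1 to 3 and 227, 255 and 246 in control replicates 1 to 3. K2P genes held 31.5%, 30.4% and 28.0% of this sum in MCT replicates 1 to 3 and 25.4%, 20.0% and 23.2% in control replicates 1 to 3. Auxiliary subunits held 18.1%, 24.7% and 25.5% in MCT replicates 1 to 3 and 27.8%, 34.5% and 33.4% in control replicates 1 to 3. For both classes the groups did not overlap, the K2P share being higher and the auxiliary share lower in MCT lungs. The K2P sum itself was 60.3, 61.7 and 64.7 FPKM in MCT replicates 1 to 3 and 57.7, 51.1 and 57.1 FPKM in control replicates 1 to 3. Kcne2, which was not called, carried most of the auxiliary difference: without it the other auxiliary genes held 13.2% to 14.2% of the family's sum in MCT lungs and 12.7% to 14.6% in control lungs, which overlap. With Kcne2 left out of the family's sum as well, they held 14.7% to 15.1% in MCT lungs and 15.5% to 18.2% in control lungs, and K2P genes held 31.9% to 34.3% in MCT lungs and 25.0% to 29.7% in control lungs. These shares are descriptions of the sums, with no test.

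Of the 3 MCT libraries, replicate 1 was the one farthest from the control mean in 26 of the 53 genes, or 49.1%, against 47.7% of all tested genes.

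The partners of these channels were described from 3 lists of 76 symbols, 70 of them tested. In all 9 rose, 3 fell and 58 did not pass. Over all tested genes 8.01% were higher and 5.11% lower, and the lists were not tested as sets. Of the 18 tested subunits and assembly partners 3 rose and 0 fell. S100a10, an annexin partner whose protein binds TASK-1, rose 1.6-fold (adjusted p = 0.0107). Nme2, a histidine kinase that activates the Kcnn4 channel, rose 1.77-fold (adjusted p = 0.0124). The call of S100a10 ended without control replicate 3 (adjusted p = 0.0516) and that of Nme2 without control replicate 2 or 3.

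Of 29 genes of calcium entry and release 4 rose, 2 fell and 23 did not pass. Cacna1c, the pore of the L-type calcium channel, rose 1.4-fold, with 40.7, 37.2 and 36.9 CPM in MCT replicates 1 to 3 and 26.9, 28.8 and 26.1 CPM in control replicates 1 to 3 (adjusted p = 0.0316). Its auxiliary subunit gene Cacnb2 fell 2.22-fold, with 6.1, 8.0 and 6.3 CPM in MCT replicates 1 to 3 and 10.6, 15.3 and 19.4 CPM in control replicates 1 to 3 (adjusted p = 0.0214). In both genes the groups did not overlap. The calcium-activated cation channel gene Trpm4 fell 1.69-fold (adjusted p = 0.0145). The other 3 that rose, outside the rule, were the T-type pore Cacna1h by 0.68, and the store-operated pores Orai1 by 0.48 and Orai2 by 0.58 (log2). The call of Cacna1c ended without any library but MCT replicate 2 (adjusted p = 0.0654 to 0.116) and on both FPKM scales, that of Cacnb2 without MCT replicate 1 or 3 or control replicate 2 or 3, and that of Trpm4 without control replicate 2 (adjusted p = 0.0604).

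Of 23 tested genes of the sodium pump and of chloride and cation cotransport 2 rose, 1 fell and 20 did not pass. Fxyd5, a regulator of the sodium pump, rose 2.41-fold, with 76.7, 57.0 and 65.6 CPM in MCT replicates 1 to 3 and 23.6, 30.8 and 28.4 CPM in control replicates 1 to 3 (adjusted p = 0.00257), and stayed called under each of the 16 alternatives. Ano6, a calcium-activated scramblase and channel, fell 1.36-fold (adjusted p = 0.0365). The call of Ano6 ended without any library but MCT replicate 2.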

How the data were processed

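PolyA RNA of 6 lung samples was sequenced. For each gene and sample the authors deposited an estimated count and an FPKM value, per the file headers. Bowtie2, TopHat2 2.0.3.12 and the build Rnor_6.0 are named in the submitters' processing notes. The sources used here do not give the counter, the annotation or the treatment of multi-mapped reads. Between 90.7% and 91.5% of the deposited estimated counts above 0 were whole numbers, and all were rounded for the tests. FPKM values were made by the authors and used for levels per length.

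Genes were kept by filterByExpr (minimum count 10, minimum total 15) and tested on the whole table with edgeR 4.0.16 in R 4.3.3 (quasi-likelihood test, TMM normalization, 3 MCT and 3 control samples, no covariates); adjusted p-values are Benjamini-Hochberg values over 15250 genes. CPM are counts scaled to TMM library sizes, log2 ratios are MCT over control. The test was also run on counts simulated with the same dispersion for every gene, which says nothing separate about genes with few counts. The counts carry no molecular identifiers, so precision rests on counting error and the spread of 3 samples. Named are all called members, in each class the member with the smallest p and that with the highest FPKM, a fixed set of lung and vascular channels, and the 3 partners with the smallest p per list. Members and lists were chosen with earlier results of these data known. Alternatives used DESeq2 1.42.0, limma 3.58.1, other normalizations, filters and scales, each library left out, and a replicate block. Promoters came from RefSeq (GRCr8), whose coordinates are not those of the table's build; gene names matched by symbol for 92 of 92 members. Within a group, each pair of libraries differed beyond sampling noise (chi-square per degree of freedom 22.1 to 49.7), and none was merged. Results for a few genes enter the counts without being reported singly.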

Additional observations from a re-analysis of the deposited data

How the results depend on the processing

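Kcnk2 was called under each of the 16 alternatives, with log2 values of -3.92 to -1.90, the smallest on the log2(FPKM + 1) scale. The family's count of higher genes, 4, was 2 with the stricter filter (minimum count 30), where Kcnh1 and Kcng2 were not tested, and 0 to 3 with a library left out. The count of lower genes, 2, was 1 on the log2(FPKM + 0.1) scale and 1 to 4 with a library left out. Over all genes, 481 to 1394 were higher and 212 to 978 lower with a library left out, against 1221 and 779. Partner genes called higher numbered 2 to 7, and lower 0 to 8, with a library left out, against 9 and 3. With a library left out the values of 14 of the 53 members spanned 0. These were Kcnn3 (-0.0636 to 0.63), Kcnj15 (-0.15 to 0.73), Kcnq5 (-0.0656 to 0.35), Kcns3 (-0.0029 to 0.38), Kcnj14 (-0.0477 to 1.02) and Kcnrg (-0.63 to 0.0675), and 8 members with no value given above (Kcne3, Kcnh3, Kcnh4, Kcnh6, Kcnk5, Kcnk7, Kcnk12 and Kcnv2). Fewer samples enter those fits; otherwise the cause was not tested.

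The replicate numbers gave no sign of pairing. Same-numbered MCT and control libraries had correlations of deviations of -0.0583, -0.0695 and -0.00241, and other-numbered ones had -0.0755 to 0.126. Deviations from means of 3 samples cannot exclude a weak batch shared by number. With the replicate block 1 member was called higher, 3 lower (Kcne2 joined, adjusted p = 0.0258; Kcnmb1, Kcng2 and Kcnh1 were lost from the higher genes) and 4 partners higher. Depth limits the genes with few counts, such as Kcnh1, Kcna5 and Kcnma1.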
